A study of Mus musculus with 8 samples.

Results

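The 39 protein-coding Hox genes of the mouse lie in 4 clusters, and chromatin accessibility over these clusters was examined in 8 ATAC-seq peak lists. Members were all protein-coding genes named Hoxa, Hoxb, Hoxc or Hoxd plus a number in the GENCODE M21 annotation of mm10, which gave 39 of 21644 protein-coding genes with an annotated start. For each cluster, every peak from 50 kb before to 50 kb after the cluster was taken. ATAC-seq inserts sequencing adapters into open chromatin, and a peak is a stretch where more DNA fragments were recovered than in its surroundings.

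The cells were bone marrow hematopoietic stem and progenitor cells of female mice aged 4.5 months, of strain 129Sv4/Jae x B6, with 10000 cells per reaction. LSK+ cells (lineage-negative, c-Kit-positive, Sca-1-positive) hold the stem cells and multipotent progenitors, and LSK- cells (lineage-negative, c-Kit-positive, Sca-1-negative) hold more committed progenitors. Each was taken from WT mice and from XistΔ/Δ mice, in which a 2lox Xist allele was deleted by Vav-iCre, a Cre transgene driven by Vav1 regulatory sequence that acts throughout the blood lineages. Xist RNA coats an X chromosome of female mammals and shuts it down. This gave 4 groups of 2 libraries each, and replicate 1 and replicate 2 were sequenced on different instruments in all 4 groups.

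Hox genes encode homeodomain transcription factors that are arranged along each chromosome in the order in which they act along the body axis, with the anterior genes (paralogues 1 to 4) at one end and the posterior genes (paralogues 9 to 13) at the other. In blood formation the Hoxa and Hoxb clusters are the best known, since Hoxa9, Hoxa10 and Hoxb4 are active in stem and early progenitor cells and are turned down as cells mature. MEIS and PBX proteins bind DNA together with HOX proteins, and the MLL1 methyltransferase (Kmt2a) and menin (Men1) keep Hoxa genes active.

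The lists held 29829 to 91590 peaks, and the 4 XistΔ/Δ lists were each longer than the WT list of the same cell type and replicate. The genome-wide background was 0.482 to 3.87 fragments. An Xist peak between 1212 and 1486 bases after the gene's start was present in all 4 WT lists at the 51.2nd to 80.6th percentile. It was absent in 3 of 4 XistΔ/Δ lists and present at the 26.9th percentile in LSK- XistΔ/Δ replicate 2. Of the 8 LSK- markers 2, the erythroid transcription factors Gata1 and Klf1, had promoter peaks in all 4 LSK- lists and in no LSK+ list, while Epor and Mpo had them in all 8 lists and Fcgr3 in 3 lists of each cell type. Of the 13841 promoters with a peak in at least 2 lists, 0.181% had peaks in all 4 LSK- lists alone and 0.368% in all 4 LSK+ lists alone. Of the 8 LSK+ markers 0 had peaks in all 4 LSK+ lists alone, 4 had them in all 8 lists, and Slamf1 had them in all 4 LSK- and 2 LSK+ lists. The promoters of Ly6a, which encodes Sca-1, and of the lymphocyte genes Cd3e, Cd79a and Cd8a had none in any list. Among the mature lymphoid markers Ebf1 had a peak in all 8 lists. Of the 6 markers of stroma and endothelium Cdh5 had none, Col1a1 and Pdgfra had peaks in all 8 lists, and Lepr had weak peaks in 3 LSK+ lists.

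Sequences are shown for the region that differed between LSK+ and LSK- cells and for the strongest region outside promoters in Hoxa, Hoxc and Hoxd, since the results below turn on these 4 regions. The GRCm38.p6 (mm10) plus strand is given 5′ to 3′ around the summit of the strongest peak, up to 200 bases with annotated untranslated stretches left out. Capitals mark matches, on either strand, to any of 7 motifs, and lower case carries no match. The letters searched were AGATAA for GATA factors, TGTGGT for RUNX factors, GAGGAA for the factor PU.1, CCGGAA for other factors of the ETS family, TGACAG for MEIS proteins, TGATNNAT for pairs of PBX and HOX proteins, and CCNNNAGNNGGC for CTCF, an insulator protein.
Hoxa start region, chr6:52213340-52213516: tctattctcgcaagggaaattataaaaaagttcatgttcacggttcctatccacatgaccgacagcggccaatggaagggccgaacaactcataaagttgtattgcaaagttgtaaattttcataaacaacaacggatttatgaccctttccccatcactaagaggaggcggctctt
Hoxa neighbour region, chr6:52211649-52211848: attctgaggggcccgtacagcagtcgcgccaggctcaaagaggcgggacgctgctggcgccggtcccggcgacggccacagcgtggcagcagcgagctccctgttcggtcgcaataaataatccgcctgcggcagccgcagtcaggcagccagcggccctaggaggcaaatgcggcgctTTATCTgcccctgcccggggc
Hoxc region, chr15:102987531-102987730: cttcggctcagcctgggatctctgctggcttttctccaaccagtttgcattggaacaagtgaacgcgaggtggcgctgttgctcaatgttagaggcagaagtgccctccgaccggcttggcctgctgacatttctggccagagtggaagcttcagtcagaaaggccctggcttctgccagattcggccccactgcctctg
Hoxd region, chr2:74715841-74716040: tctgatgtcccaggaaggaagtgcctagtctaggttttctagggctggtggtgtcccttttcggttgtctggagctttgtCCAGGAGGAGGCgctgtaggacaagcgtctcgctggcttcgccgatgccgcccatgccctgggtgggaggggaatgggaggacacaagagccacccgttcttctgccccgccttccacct
The neighbour region in Hoxa held 1 GATA match, a motif found in 13.7% of the 41777 tested regions over 200 bases. The Hoxd region held 1 CTCF match, which 14.0% of tested regions had. The other windows held no match to these letters. Among the 21 tested regions in the Hox windows 6 held the CTCF letters (28.6%), 2 the GATA letters (9.52%) and 0 the RUNX letters, against 24.0% of all tested regions for RUNX. The letters for PBX and HOX pairs were in 9.52% of the 21 and 4.43% of all tested regions. For MEIS the shares were 9.52% and 15.7%, for PU.1 23.8% and 29.5%, and for ETS 9.52% and 10.3%. The median GC content was 60.0% in the 21 windows and 52.5% in all tested regions.

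The strength of a peak was described as its within-list percentile, the rank of its -log10 p among all peaks of the same list, with 100 for the strongest. A promoter peak of a gene had its summit within 1 kb of that gene's start and closer to it than to the start of another protein-coding gene. In the 8 lists 8 to 21 of the 39 Hox genes (20.5% to 53.8%) had a promoter peak, against 52.3% to 60.6% of all protein-coding genes. The median percentile of the Hox promoter peaks was 26.0 to 68.6, below the median of all promoter peaks in each list (76.7 to 89.4). A promoter peak was present in all 8 lists for 6 Hox genes (15.4%), in at least 4 lists for 13, in 1 to 3 lists for 14 and in no list for 12 (30.8%). Of all protein-coding genes 45.0% had a promoter peak in all 8 lists, 8.05% in 1 to 3 lists and 32.9% in none. The share in 1 to 3 lists was thus 35.9% for the Hox genes.

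**Figure D1:**
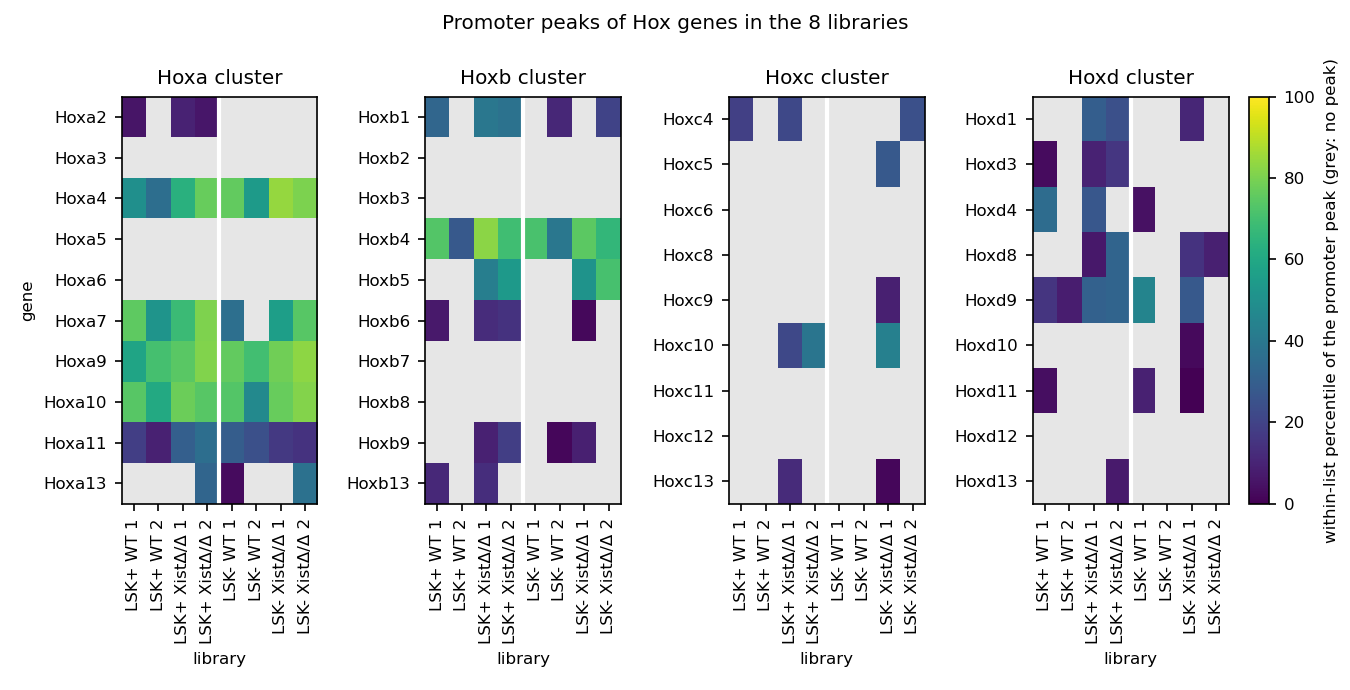
Each row is 1 Hox gene and each column 1 library, with colour giving the within-list percentile of the strongest promoter peak and grey no peak. Hoxa4, Hoxa9, Hoxa10, Hoxa11 and Hoxb4 are filled in all 8 columns, and Hoxb5 and Hoxd8 only in the 4 XistΔ/Δ columns.

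The number of Hox genes with a promoter peak varied with the list. The shortest lists, LSK+ WT replicate 2 with 29829 peaks and LSK- WT replicate 2 with 37578 peaks, each held 8 such genes. LSK+ XistΔ/Δ replicate 1, with 82488 peaks, held 21, and LSK- XistΔ/Δ replicate 1, with 91590 peaks, held 19. The lists between these did not follow their length. LSK- WT replicate 1, with 71153 peaks, held 11, and LSK+ WT replicate 1, with 63373, held 16. For XistΔ/Δ replicate 2 the counts were 19 in LSK+, with 63184 peaks, and 12 in LSK-, with 62533. Over all genes the same lists ranged only from 52.3% to 60.6%. When every list was reduced to its 29829 strongest peaks, 4 to 8 Hox genes per list kept a promoter peak (41.9% to 52.3% of all genes).

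**Figure D2:**
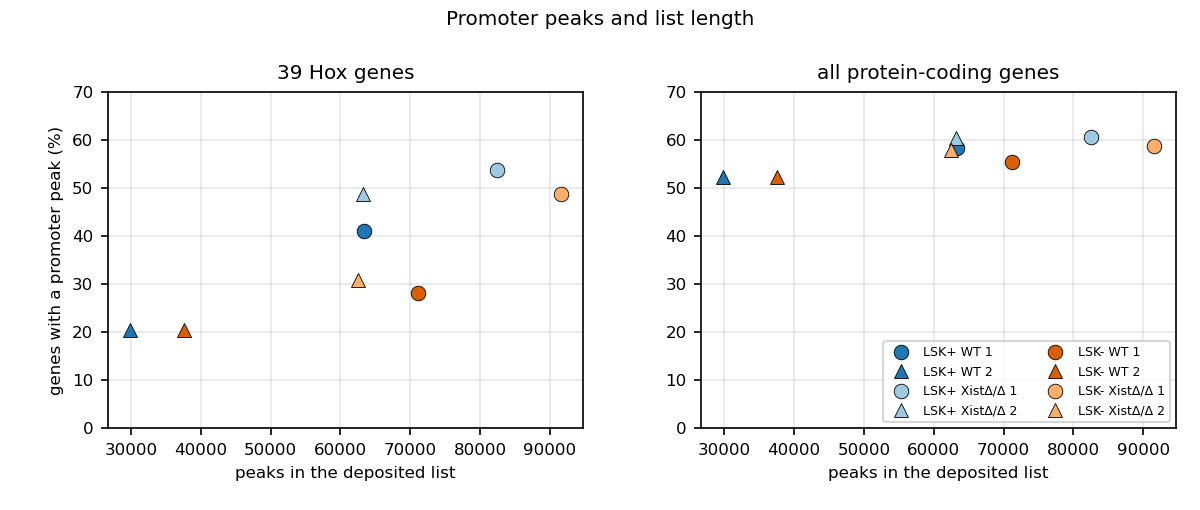
The x axis gives the number of peaks in each deposited list and the y axis the percentage of genes with a promoter peak, for the 39 Hox genes (left) and all protein-coding genes (right), with circles for replicate 1 and triangles for replicate 2. The Hox share spans 20.5% to 53.8%, while the share of all genes spans 52.3% to 60.6%.

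The Hoxa cluster (chr6:52155590-52260880, minus strand, 11 genes) was the most accessible. Its window held 13 to 22 peaks per list, or 6.33 to 10.7 peaks per 100 kb, where the whole genome held 1.13 to 3.48. Promoter peaks were present in 5 to 8 of its 11 genes. The Hoxb window (chr11:96144316-96418256) held 8 to 24 peaks, with promoter peaks in 1 to 6 of 10 genes. The Hoxd window (chr2:74618310-74815142) held 2 to 17 peaks, with promoter peaks in 0 to 5 of 9 genes. The Hoxc window (chr15:102871103-103086852) held 0 to 10 peaks, with promoter peaks in 0 to 4 of 9 genes, and LSK+ WT replicate 2 had no peak there. In the lists of 29829 peaks the Hoxa window kept 6 to 13 peaks, Hoxb 2 to 8, Hoxd 0 to 3 and Hoxc 0 to 1.

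Most peaks of the windows lay inside the clusters. Over the 8 lists, 61 of 136 peaks in the Hoxa window were promoter peaks, 44 lay elsewhere in the cluster and 31 in the flanks. In the Hoxb window the order was different, with 27 promoter peaks, 73 other peaks within the cluster and 25 in the flanks. By position, a promoter peak in all 8 lists was found for 3 of 12 anterior genes, 0 of 11 central genes (paralogues 5 to 8) and 3 of 16 posterior genes.

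**Figure D3:**
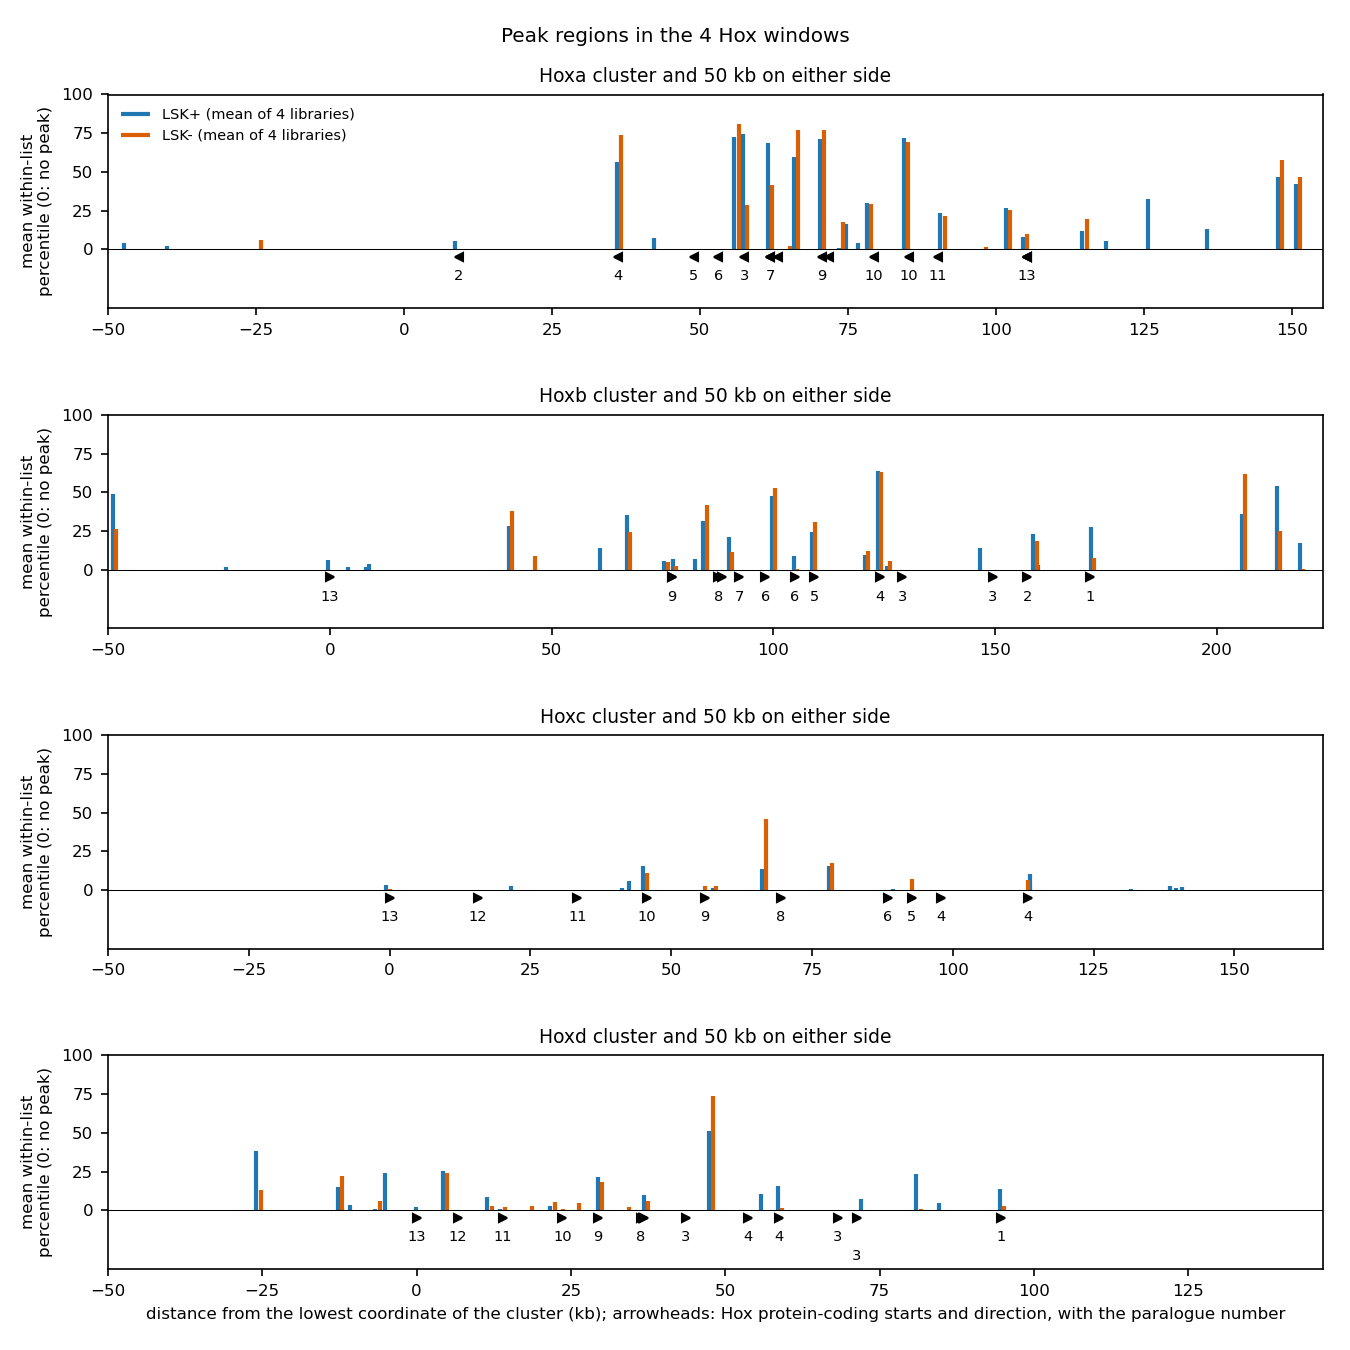
Each pair of bars is a merged peak region in the window of 1 cluster (regions not reported here are left out), with the distance in kb from the lowest coordinate of the cluster on the x axis and the mean within-list percentile of the 4 LSK+ (blue) and 4 LSK- (orange) libraries on the y axis, a missing peak counted as 0. In Hoxa, at the annotated Hoxa3 start the LSK+ bar is the taller of the pair.

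Among the anterior genes, Hoxa4 had a promoter peak at the 49.9, 36.1, 63.4 and 76.8 percentile in the LSK+ lists (WT replicates 1 and 2, then XistΔ/Δ replicates 1 and 2, the order used throughout). In the LSK- lists it was at 76.1, 54.6, 84.0 and 80.3. The summit lay between -255 and -191 bases from the start. The LSK- value was the higher in each pair of the same genotype and replicate, and the groups overlapped.
Hoxb4, which expands stem cells when overexpressed, was at 73.4, 28.1, 82.6 and 69.4 in LSK+ and 71.4, 39.5, 74.8 and 66.3 in LSK- lists. The cell types overlapped, and the replicates 2 of WT were the lowest of each. Its summit lay 386 to 575 bases inside the gene. Hoxb1 had a promoter peak in 5 lists, at 33.0, 39.5 and 37.7 in LSK+ (none in WT replicate 2) and at 11.0 and 20.0 in LSK- replicates 2. Hoxa2, with weak peaks at 5.77, 9.70 and 6.14, and Hoxd3, with 3.12, 9.66 and 16.0, each had promoter peaks in 3 LSK+ lists and in no LSK- list, both lacking one in LSK+ WT replicate 2. At Hoxd3 a peak of LSK- XistΔ/Δ replicate 2, at 1.44, overlapped the same region with its summit more than 1 kb from the start. The share of all promoters with this pattern was not computed. Of the other anterior genes Hoxc4, Hoxd1 and Hoxd4 had peaks in 3 lists each, and Hoxa3, Hoxb2 and Hoxb3 in none. The peak at the annotated Hoxa3 start, described below, was closer to a start of the read-through gene Gm28308 and was counted there.

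Among the central genes, Hoxa7 had a promoter peak in 7 lists. Its LSK+ percentiles were 75.3, 51.7, 68.3 and 80.5. Its LSK- percentiles were 36.5, none, 56.0 and 74.0. The LSK- value was the lower in each pair of the same genotype and replicate, and the groups overlapped.
Hoxb5 had a promoter peak in the 4 XistΔ/Δ lists at 42.7 and 53.8 (LSK+) and 51.4 and 70.8 (LSK-), with 35 to 51 fragments at the summit, and in no WT list. Hoxd8 showed the same presence with weaker peaks at 6.63 and 32.3 (LSK+) and 14.7 and 8.70 (LSK-). A promoter peak in all 4 XistΔ/Δ lists and no WT list was seen for 0.238% of 13841 promoters with a peak in at least 2 lists. Each XistΔ/Δ list was longer than the WT list of the same cell type and replicate. The XistΔ/Δ replicates 2, with 63184 (LSK+) and 62533 (LSK-) peaks, were shorter than the WT replicates 1, with 63373 and 71153. In the lists of equal length the Hoxb5 peak was kept only in LSK+ XistΔ/Δ replicate 2 (2.21) and LSK- XistΔ/Δ replicate 2 (38.8), and the Hoxd8 peak in none. No Hox promoter had a peak in all 4 lists of one cell type and none of the other (0.368% of promoters for LSK+ and 0.181% for LSK-). Hoxb6 had weak peaks in 4 lists, at 2.33 to 14.8, and Hoxc5 in 1 list. Hoxa5, Hoxa6, Hoxb7, Hoxb8, Hoxc6 and Hoxc8 had none.

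Among the posterior genes, Hoxa9, a gene linked to leukemia and to stem cell self-renewal, was at 58.5, 70.4, 74.5 and 81.0 in LSK+ and 75.8, 69.7, 78.3 and 83.2 in LSK- lists. The values of the cell types overlapped. Hoxa10 was at 74.1, 60.9, 77.4 and 74.0 in LSK+ and 73.1, 47.0, 76.8 and 81.3 in LSK- lists, again with overlap. Hoxa11 had a weak peak in all 8 lists, at 18.5, 9.36, 30.2 and 36.0 in LSK+ and 29.5, 24.5, 16.5 and 14.6 in LSK- lists, with its summit 691 to 851 bases upstream of the start. Hoxd9 had peaks in 6 lists, at 15.3, 7.82, 31.1 and 32.1 in LSK+ and at 45.2 and 27.8 in the LSK- replicates 1. Hoxb9 had weak peaks in 4 lists, at 1.62 to 18.7. Hoxa13, Hoxc10 and Hoxd11 had peaks in 3 lists, Hoxb13 and Hoxc13 in 2, Hoxc9, Hoxd10 and Hoxd13 in 1, and Hoxc11, Hoxc12 and Hoxd12 in none.

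The percentile depends on the local background that the peak caller set around each peak, and this background was uneven across the Hox promoters. At Hoxa9 the fragments piled up at the summit numbered 53 to 162, the highest range of any Hox promoter, over a local background of 6.33 to 26.6 fragments. At Hoxa7 there were 36 to 120 fragments over 5.83 to 21.2. Hoxa10 had fewer fragments, 19 to 88, over 1.18 to 6.63, and reached fold enrichments of 9.18 to 18.8 against 4.38 to 10.8 for Hoxa9. The local background of the other Hox promoters reached at most 9.13 fragments, at Hoxb4.

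To compare the groups, the 29829 strongest peaks of each list were ranked, a missing peak was set to 0, and differences were fitted with limma across all promoters with a peak in at least 2 of 8 lists (11528 promoters, among them 8 Hox genes). The largest Hox differences between cell types were at Hoxa7, higher in LSK+ by 31.2 points (95% interval ± 36.3, limma adjusted p = 0.837), and at Hoxa4, where LSK+ minus LSK- was -27.1 points (± 37.8, adjusted p = 0.862). With the replicate number as a block the limma adjusted p-values were 0.274 and 0.305. Hoxb4 had 12.8 points (± 26.5). Hoxa9, Hoxa10, Hoxa11 and Hoxb5 lay between -9.14 and 7.41 points. No Hox promoter passed the threshold of adjusted p under 0.05, and neither did any of the 11528 promoters (0.00% higher and 0.00% lower in LSK+). By limma 790 promoters were at unadjusted p under 0.05, of which 0 were Hox. With the block these were 1793, of which 2 were Hox, Hoxa7 and Hoxa4. With intervals as wide as these, the count of 0 called promoters does not show that the cell types were alike. In simulated promoters the fit without the block called 0 of 50 shifts of 80 points, and the fit with the block 39 of 50. The simulation does not give the power in the real lists. Without the block it also called 0 of 50 such shifts in regions, where the real fit called 1672 of 41777. The median difference was -3.26 points over the 8 Hox promoters and -1.03 over all promoters.

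Between XistΔ/Δ and WT, no Hox promoter was called, nor any promoter (0.00% in either direction, with 136 at unadjusted p under 0.05 by limma and 420 with the block, of which 0 were Hox). The highest of the 8 Hox differences was 10.3 points, at Hoxb5 (± 20.5, limma adjusted p = 1.00). Hoxb5 met the minimum of 2 lists only through the XistΔ/Δ replicates 2, at 2.21 in LSK+ and 38.8 in LSK-, so its difference is no independent support. The median difference was 1.64 points over the 8 Hox promoters and -0.0350 over all promoters.

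**Figure D4:**
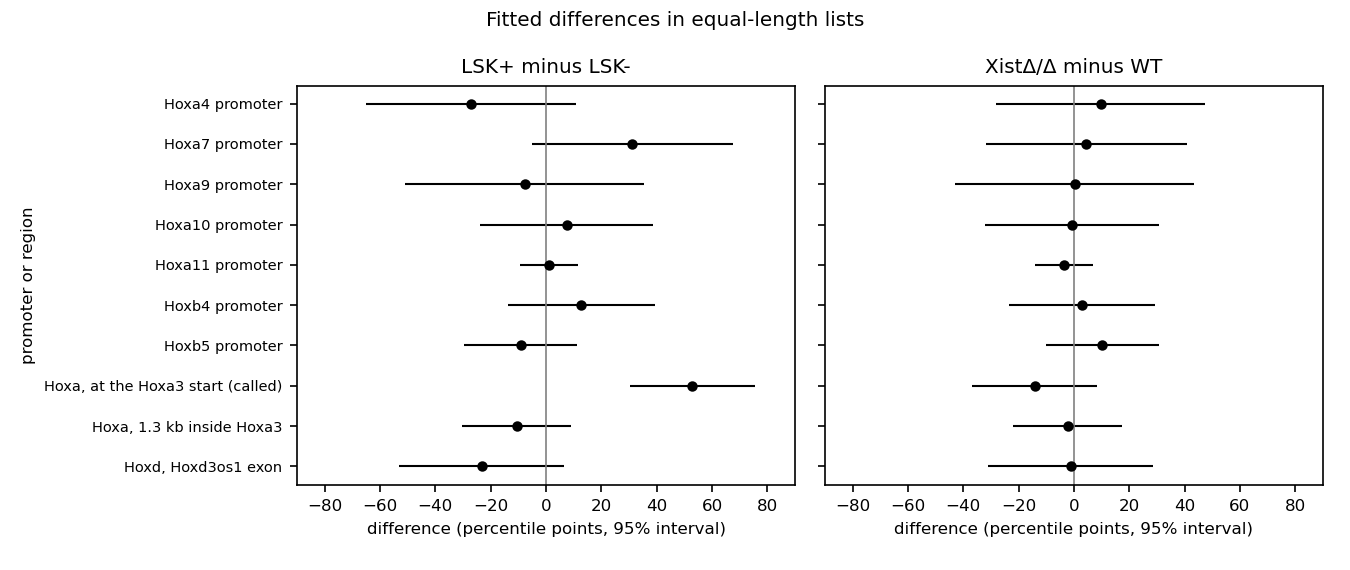
Points are fitted differences in percentile points, in lists of equal length, and bars their 95% intervals, for tested Hox promoters and 3 regions (left LSK+ minus LSK-, right XistΔ/Δ minus WT). The Hoxa start region, at 52.9 points, is the only interval on the left panel that lies wholly above 0, and every interval on the right panel spans 0. The 4 LSK- values of the Hoxa start region are 0 because the lists were shortened, and it was tested only through its LSK+ values.

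Outside the promoter table, peaks of all lists were merged into regions, of which 103 touched the 4 Hox windows, 29 in Hoxa, 29 in Hoxb, 19 in Hoxc and 26 in Hoxd. A peak was present in all 8 lists for 11 regions, 8 of them in Hoxa, and in a single list for 29. In the lists of equal length 21 of the 103 were tested, among 41777 regions, and 1 was called. It lay at chr6:52212805-52213573, with its centre 74 bases upstream of the annotated start of Hoxa3, between Hoxa6 and Hoxa7, over exons of the noncoding antisense gene Hoxaas3 and of the read-through gene Gm28308.

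This Hoxa start region was at 71.1, 62.7, 40.5 and 37.1 in the LSK+ lists of equal length and absent from all 4 LSK- lists. The difference was 52.9 points (SE 9.73, 95% interval ± 22.6, limma adjusted p = 0.0409, and 0.0143 with the block). The region entered the test only through the LSK+ lists in which it was high, and the LSK- values of 0 came from shortening the lists, so this p is no independent support for the difference. The call was lost with all deposited peaks (adjusted p = 0.256), with -log10 q of at least 5 (0.0551), with a peak in 1 of 8 lists as the minimum (0.0612) and with 50% coverage of the region (0.360), and ranked by fold the region was not tested. Regions called higher in LSK+ made up 2.08% of those tested and regions called lower 1.92%, and no Hox region was called lower. In the lists of equal length the LSK+ and LSK- means differed by 55.8 points within replicate 1 and by 49.9 within replicate 2. These differences are the LSK+ means themselves, since every LSK- value there was 0. In the full lists the region was present in all 8, at 86.4, 62.7, 78.5 and 70.3 in LSK+ and 42.0, 7.75, 58.9 and 5.48 in LSK-, where the values of the cell types did not overlap. The share of all regions without such overlap was not computed. In the lists of equal length 23.7% of the 41777 tested regions had unadjusted p under 0.05 between cell types by limma, and 32.3% with the block. Leaving out any 1 library other than LSK- XistΔ/Δ replicate 2 took the adjusted p of the start region to between 0.0607 and 0.121 and left 0 regions called in the genome. In the promoter table the same peak is that of Gm28308, where the difference was again 52.9 points with an adjusted p of 0.284 over 11528 promoters.

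The neighbour region at chr6:52211448-52212190, in an intron 1296 bases inside Hoxa3, went the other way in every pair of the same genotype and replicate. It was at 53.9, 53.4, 38.8 and 56.6 in LSK+ and 56.4, 64.8, 54.2 and 69.8 in LSK- lists of equal length (-10.6 points, ± 19.6, limma adjusted p = 0.453). Since both regions were measured in each library, their fragments can be set against each other without a correction for depth. At the start region there were 106, 40, 120 and 84 fragments in LSK+ and 44, 17, 91 and 21 in LSK-, and at the neighbour 75, 29, 102 and 89 in LSK+ and 70, 43, 147 and 82 in LSK-. The ratio of start to neighbour was 1.23 ± 0.215 (SD, n = 4) in LSK+ and 0.475 ± 0.181 (SD, n = 4) in LSK-, from 0.944 to 1.41 and from 0.256 to 0.629. The ranges did not overlap. The ratio also moves with the neighbour, whose percentile was higher in LSK- in all 4 pairs. It is given without a test, as the region was chosen for its difference. Of the 8 LSK- markers 2, Gata1 and Klf1, had promoter peaks in all 4 LSK- lists and no LSK+ list (0.181% of 13841 promoters). The part of cell makeup in this difference was not tested, and in bulk samples fewer accessible cells and less accessibility per cell cannot be told apart.

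**Figure D5:**
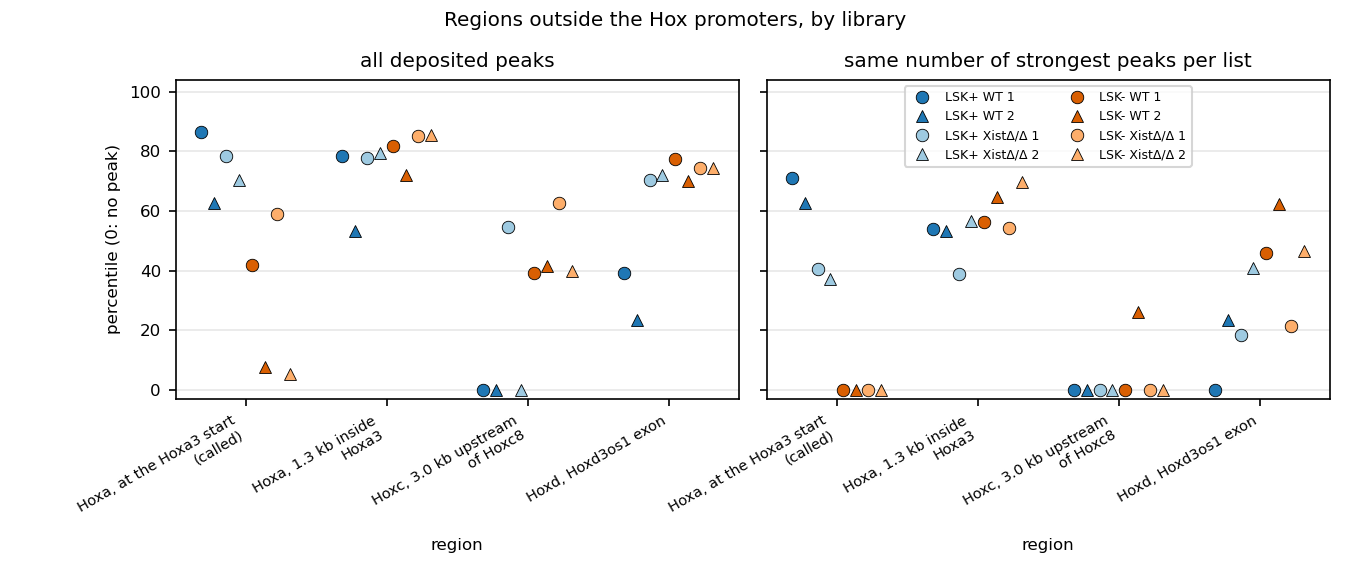
Each point is 1 library, with the percentile of its strongest peak in 4 regions on the y axis (0 for no peak), for all deposited peaks (left) and for the 29829 strongest peaks per list (right), with circles for replicate 1 and triangles for replicate 2. At the Hoxa start region the LSK+ points sit from 37.1 to 71.1 on the right panel and the LSK- points at 0, while at the neighbour region the cell types overlap.

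In the Hoxd window 1 region was tested, at chr2:74715730-74716298 over an exon of the noncoding gene Hoxd3os1. In the lists of equal length it was at 0, 23.6, 18.4 and 40.8 in LSK+ and 45.9, 62.2, 21.4 and 46.5 in LSK- (-23.3 points, ± 29.8, limma adjusted p = 0.323, and 0.140 with the block). The 0 came from shortening the list. In the full lists the region had a peak in all 8, at 39.3, 23.6, 70.5 and 72.0 in LSK+ and 77.3, 70.0, 74.4 and 74.5 in LSK-. It was the higher in LSK- in all 4 pairs, and the ranges of the cell types overlapped. No Hoxc region was tested. The strongest one lay at chr15:102987340-102987877, 2999 bases upstream of Hoxc8. In the full lists it had peaks in all 4 LSK- lists at 39.4, 41.5, 62.6 and 40.0. Among the LSK+ lists it had a peak in XistΔ/Δ replicate 1 alone, at 54.6.

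Regions with peaks in every list of one cell type and no list of the other were few and weak. In the full lists 2 of the 74 Hox regions with a peak in at least 2 lists had a peak in all 4 LSK+ lists and no LSK- list, against 0.785% of all 92019 such regions. One was at chr6:52291022-52291632, 30447 bases upstream of Hoxa13, at 10.9, 0.900, 15.1 and 24.5 with 5 to 15 fragments. The other was at chr11:96340650-96341246, within Hoxb3, at 7.74, 6.92, 17.0 and 24.5. Another region, chr6:52230459-52230982 within the Hoxa9 gene record, was found in LSK+ lists other than WT replicate 1, at 33.5, 9.05 and 22.5 and in no LSK- list. It was not alone in this, and others reached higher percentiles. In LSK+ lists other than WT replicate 2, chr6:52280994-52281532 was at 55.9, 59.6 and 13.2, and chr2:74663356-74663811 at 27.3, 47.4 and 22.1. Neither had a peak in an LSK- list. The share of all regions with such a pattern was not computed. Of the 74 regions 0 had peaks in all 4 LSK- lists alone (2.84% of all such regions). For the genotypes, 2 of the 74 had peaks in all 4 XistΔ/Δ lists and in no WT list, the Hoxb5 and Hoxd8 promoter regions already described (0.624% of regions), and no region was called between genotypes (0.00% of 41777 in either direction, with 953 at unadjusted p under 0.05 by limma, of which 0 were in Hox windows).

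The HOX cofactors were accessible in both cell types. Of 9 genes 6 had promoter peaks in all 8 lists and 3 in some, and 0 of the 5 tested were called between cell types or genotypes. Meis1, which is needed for stem cell maintenance, was at 97.1, 89.6, 98.4 and 90.6 in LSK+ and 92.1, 85.0, 91.4 and 90.7 in LSK- (limma adjusted p = 0.692). It stood above every Hox promoter in the same lists. Of 17 regulators of Hox genes 13 had promoter peaks in all 8 lists and 2, Cdx1 and Kdm6b, in none. Men1 was at 88.5 to 98.8 and Kmt2a at 37.2 to 99.3, and 0 of the 13 tested were called. Of the 5 ParaHox and Evx genes 1, Gsx1, had a promoter peak in all 8 lists, at 33.8 to 76.2, and 2, Gsx2 and Evx1, in none. Of the 2 other protein-coding genes that start in the windows, Gm28308 is described above and 5730596B20Rik had no promoter peak.

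Over 250 bases before and 50 after the 5′ end of the gene record, the median GC content was 55.3% in the 39 Hox genes and 55.0% in all protein-coding genes. The observed to expected CpG ratio had a median of 0.745 in the Hox genes against 0.530 in all protein-coding genes, 0.744 in all genes with a promoter peak in all 8 lists and 0.179 in genes with none. By contrast with the genes without a peak as a whole, the 12 Hox genes without any promoter peak had a median of 0.890, and the 13 with a peak in at least 4 lists 0.596. The end of the gene record can lie far from the start that had the peak. At Hoxa9 the record ends at chr6:52231089, and the peak lay at the start at chr6:52226189. The 12 genes also include Hoxa3, whose peak was counted for Gm28308. These medians therefore do not describe the peak sites themselves.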

How the data were processed

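ATAC-seq peak lists of 8 libraries, 2 per group, were analysed; groups came from the sample titles. Per the labels and the study's methods, the authors trimmed reads with Trim Galore, aligned them to mm10 with Bowtie2 2.3.5.1, removed mitochondrial reads and those of mapping quality under 30 with SAMtools 1.10, and called peaks in each library with MACS2 2.2.7.1 at q 0.01 on paired fragments. No duplicate removal or Tn5 shift was stated. The deposited lists give fold (a ratio of pileup to local background), -log10 p, -log10 q and a score per peak; they hold no read totals, so depth is known only through the genome-wide background. The study calls the 2 libraries of a group biological replicates, but the labels do not say that they came from separate animals, so p-values measure only the spread between these libraries, which may be technical.

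Peaks on chromosomes 1 to 19 and X were ranked by the deposited -log10 p. The fragment pileup at a summit was solved from the deposited fold and -log10 p. Promoter peaks were assigned within 1 kb of the closest GENCODE M21 protein-coding start (starts within 10 bases tied). For tests, the 29829 strongest peaks of each list were kept, and percentiles, with 0 for no peak, were fitted with limma 3.58.1 in R 4.3.3 (4 group means, empirical Bayes with a variance trend, Benjamini-Hochberg over all features, 2 of 8 libraries as the minimum). The steps were tested on simulated data. Calls were adjusted p under 0.05. Replicate numbers mark the sequencing instrument in all groups, and deviations of replicate 2 correlated between groups over regions (0.1645 to 0.5208), so the numbers pair the samples and the replicate block is given beside calls it changes. Alternatives were all deposited peaks, ranking by fold, -log10 q of at least 5, other minimums, no variance trend, a 3 kb window, any overlap with 1 kb around the start, 50% coverage of a region, the block, and leaving out each library.

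Hox genes are named with values per library for those with a promoter peak in at least 4 lists, for called regions and for the strongest region outside promoters in each cluster, and some items, a Hox gene and a Hoxb region among them, are counted in the totals and not reported here. Other genes named with values were taken from the gene lists or chosen after their values were seen. The members and lists were chosen with earlier results of these data known.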

Additional observations from a re-analysis of the deposited data

How the results depend on the processing

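The counts of Hox promoters called were 0 under all alternatives run. Promoters called between cell types numbered 65 and between genotypes 17 without a variance trend, and 0 to 7 in each when 1 library was left out. The 1672 regions called between cell types became 0 with all deposited peaks, with ranking by fold, with -log10 q of at least 5 and with 50% coverage, and so did the 1 Hox region called higher in LSK+, although its difference stayed positive (37.2 to 55.0 points) wherever it was tested. Ranked by fold it was not among the tested regions. They became 555 when 1 of 8 libraries sufficed (0 Hox regions), 4049 with 4 of 8, and 3807 without a variance trend. With the replicate block, which pairs libraries by sequencing instrument, 5141 regions were called and the Hox region stayed called at adjusted p = 0.0143; the block changed no other Hox call. Leaving out 1 library gave 0 to 3060 regions (3060 without LSK- XistΔ/Δ replicate 2 and 0 otherwise) and 0 to 1 Hox regions. The start region's adjusted p ranged from 0.00498 to 0.360. The causes were not tested.

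Hox genes with a promoter peak in every LSK+ list numbered 8, in every LSK- list 6 and in no list 12. With lists of equal length these became 4 in LSK+ and 30 in no list, and with a 3 kb window 10 in LSK- and 4 in no list. Leaving out 1 library gave 8 to 12 (12 without LSK+ WT replicate 2), 6 to 7 and 12 to 15. Hoxa3 gained promoter peaks in all 8 lists with the 3 kb window, with any overlap of the peak with 1 kb around the start, and when a peak counted for every gene with a start within 1 kb, the last an alternative added after the data were seen. Differences between cell types that changed sign were all uncalled. Ranked by fold, Hoxa10 had -4.71 and Hoxa11 -0.0499 points. Leaving out 1 library, Hoxa9 ran from -22.3 to 7.02 (0.174 without LSK- XistΔ/Δ replicate 2), Hoxa10 from -0.613 to 15.4 and Hoxa11 from -0.111 to 3.45. In simulated data the fit without the block called 0 of 50 shifts of 80 points, for promoters and for regions, and the fit with the block 39 and 44 of 50. In the real lists the fit without the block called 1672 of 41777 regions. The simulated shifts therefore do not give the power of the fit in these lists.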
